A study of Mus musculus with 24 samples.

Results

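The comparison described here is that of colon wall from VilCre control mice given dextran sulfate sodium (DSS) with colon wall from untreated VilCre control mice. It was chosen by sample title alone, as the 4 libraries titled for control colon with DSS set against the 4 titled for control colon with water, and it uses 8 of the 24 libraries of the series. All 8 came from C57Bl/6 mice with the VilCre transgene, which puts Cre recombinase under a villin promoter and so acts in gut epithelium, and none of the 8 carried the caNrf2 transgene. The untreated group is titled water, and its treatment label is none. Whole pieces of colon wall, 10 mm long and cut about 10 to 20 mm from the rectum, were homogenised, so that mucosa, muscle, vessels, nerves and immune cells were sequenced together. A further 8 wall libraries, DSS and water in mice with VilCre and a constitutively active form of NRF2 (caNrf2), entered the fit to share the estimate of spread and are quoted beside the control values where this is said. Triplicates are mentioned in the series text, whereas each group here held 4 libraries. Whether those 4 were separate animals is not stated, so the p-values rest on the scatter of the libraries alone, which may be technical in part. The sources used here do not give the dose and duration of DSS or the age and sex of the mice.

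DSS is a sulfated polysaccharide that damages the lining of the mouse colon when given in drinking water and is widely used to produce colitis. The lining is renewed from crypts, whose base holds Wnt-dependent stem cells and whose lower part holds the dividing progeny, while mesenchymal cells under the crypts supply Wnt ligands, R-spondins and BMP antagonists. Loss of lining brings bacteria into contact with the wall, which is known to draw in neutrophils and monocytes and to raise interferon, complement and matrix remodelling genes. In whole wall, fewer cells of a type and less RNA per cell cannot be told apart, and this holds for every difference below.

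Levels are in CPM, which are counts scaled to a common library size after TMM normalisation, listed for replicates 1 to 4 in that order, and fold changes are log2 ratios of DSS over water from edgeR's quasi-likelihood test with Benjamini-Hochberg adjustment over all genes tested. A gene is said to have risen or fallen where its adjusted p was below 0.05. The library totals were 20232317 to 44483251 estimated counts with DSS and 22823662 to 105029745 with water. Of 16074 genes tested, 39.2% passed the threshold, 23.1% higher with DSS and 16.1% lower, and in 33.3% the 4 DSS and the 4 water values did not overlap. Those shares are the background against which each list below is read. Of the genes that passed, 58.9% were higher, a share that lay between 50.8 and 62.4% in the other settings run, as given at the end. Past 1 log2 unit lay 2298 genes that rose and 850 that fell, and past 2 log2 units 336 and 235.

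Several libraries stood apart. On the first principal component, which held 61.6% of the variance of the 8 libraries, DSS replicates 2 to 4 lay at 48.4 to 51.1 and DSS replicate 1 at 15.3, while water replicates 1 to 3 lay at -47.4 to -44.2 and water replicate 4 at -25.5. DSS replicate 3 held the most smooth muscle and globin RNA and DSS replicate 4 the most immediate early RNA. Fat RNA was uneven too. The summed level of 10 adipocyte genes was 392.3 CPM in DSS replicate 4, 358.5 CPM in DSS replicate 3 and 456.4 CPM in water replicate 2, and 147.7 to 272.4 CPM in the other 5 libraries, and the fat marker Adipoq was highest in water replicate 2, at 33.9 CPM. Replicate 4 of each wall group also came in a file numbered apart from replicates 1 to 3, and what that number stands for is not given in the labels. Leaving out 1 control library at a time gave 4952 to 6784 genes past the threshold, against 6300 with all of them.

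Epithelial and muscle markers of colon wall were present in every library. Most epithelial markers were abundant with and without DSS, and the falls among them were at most about 1 log2 unit. Epcam, an adhesion protein of all colon epithelial cells, had 1300, 1289, 1322 and 1385 CPM with DSS, against 1906, 1563, 2440 and 1528 CPM with water, a log2 fold change of -0.49 (adjusted p = 0.0464). That call was lost without any single control library except water replicates 2 and 4 (adjusted p = 0.0726 to 0.119). Vil1, the brush border protein villin, had 712.6, 860.8, 573.8 and 623.0 CPM with DSS, against 769.6, 681.7, 736.8 and 586.8 CPM with water, and did not pass. Krt18, a keratin of simple epithelium, fell (-1.06, adjusted p = 0.00544), while Krt20, Krt8 and Cdh1 did not pass. The epithelial marker Cdx2 was less abundant, at 6.74 to 18.1 CPM with DSS and 16.3 to 54.2 CPM with water. It did not pass (-0.91, adjusted p = 0.0684). The muscle markers Acta2, Myh11, Des, Actg2 and Cnn1 did not pass either, and in all 5 DSS replicate 3 was the highest of the 8 libraries. Markers of pancreas were at 0 in 7 or 8 of the 8 libraries, and the squamous marker Trp63 was at or below 0.136 CPM in all of them. The squamous keratins Krt5 and Krt14 were detected at low levels. Krt14 had 3.16, 2.48, 1.76 and 5.62 CPM with DSS, against 3.62, 2.23, 5.55 and 2.03 CPM with water, and overlapped. Krt5 rose, with 0.644, 0.818, 2.52 and 0.602 CPM with DSS, against 0.277, 0.214, 0.325 and 0.261 CPM with water (1.99, adjusted p = 0.0119), a call lost without DSS replicate 3 (1.32, adjusted p = 0.0595). Of 9 squamous epithelium genes tested out of 15, 1 rose and 2 fell. Nfe2l2, which encodes NRF2, had 147.9, 125.8, 110.6 and 167.9 CPM with DSS, against 99.5, 129.7, 120.9 and 146.2 CPM with water, with overlapping groups and a log2 fold change of 0.15 (adjusted p = 0.539).

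**Figure D1:**
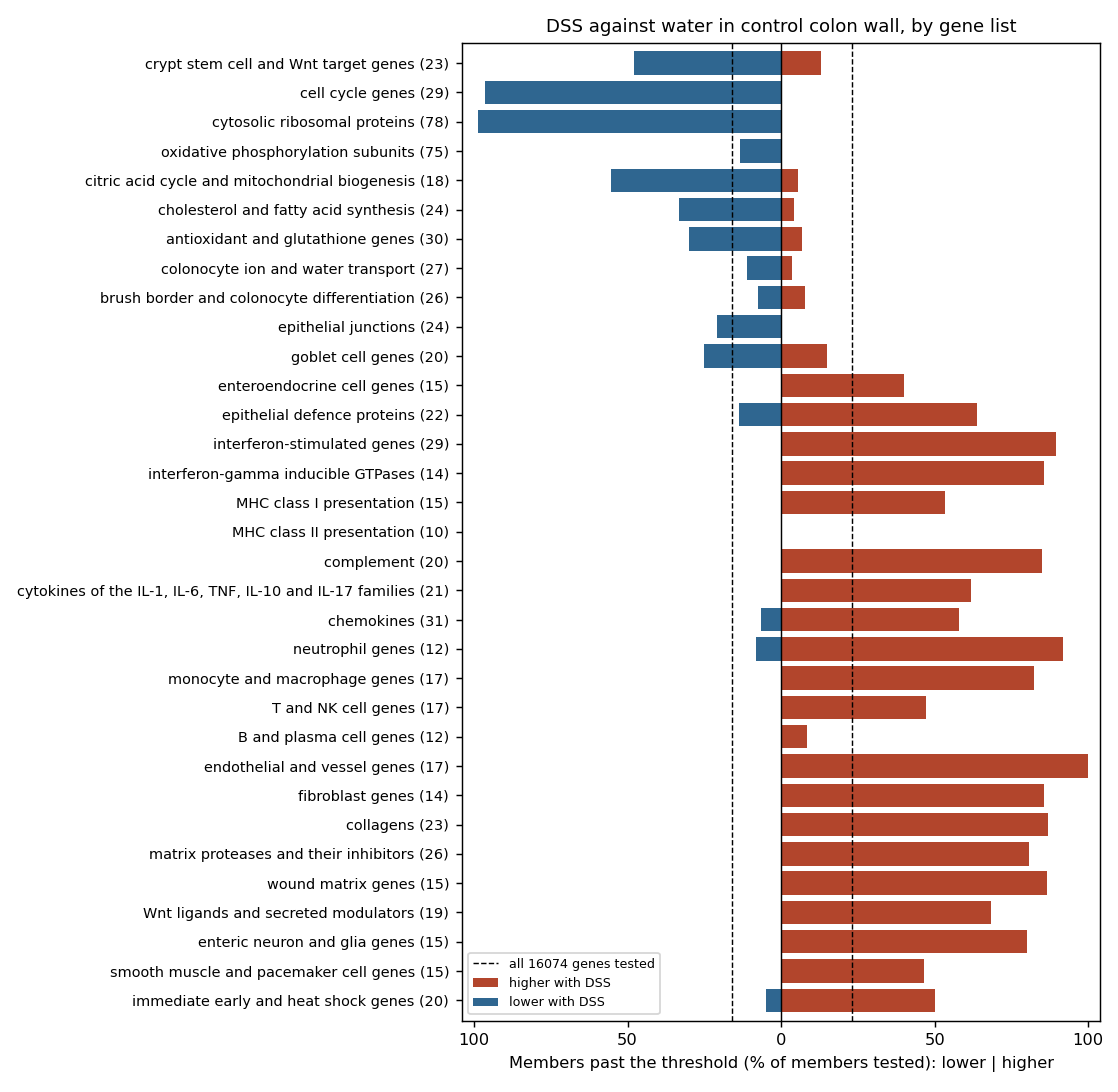
Share of the tested members of 33 gene lists that passed the threshold, higher with DSS to the right and lower with DSS to the left, as a percentage of the members tested (number in brackets). Dashed lines mark the same shares over all genes tested, 23.1% higher and 16.1% lower: endothelial, collagen, complement and interferon lists lie far to the right, and cell cycle and ribosomal protein lists far to the left.

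Among the crypt genes, markers of the stem cells at the crypt base fell most steeply. Ascl2, the transcription factor that sets crypt stem cell identity (chromosome 7, 142966822 to 142969264 on mm10), had 0.123, 0.0682, 0.101 and 0.156 CPM in the DSS libraries, against 4.92, 3.85, 3.44 and 9.78 CPM in the water libraries. Every DSS library lay far below every water library, with a log2 fold change of -5.58 (SE 0.47, adjusted p = 3.37e-06). Lgr5, the R-spondin receptor that marks these cells (chromosome 10, 115450314 to 115587780 on mm10), had 0.368, 0.545, 0.352 and 0.535 CPM with DSS, against 7.36, 9.68, 5.32 and 8.08 CPM with water. The groups did not overlap here either, and the DSS libraries were close to each other (-4.04, SE 0.31, adjusted p = 1.2e-06). Unlike many other genes below, neither showed DSS replicate 1 nearer to the water libraries than the other DSS libraries.

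Of the 24 crypt stem cell and Wnt target genes in the files, 23 were tested, 11 fell and 3 rose, with a median log2 fold change of -0.87, against 0.06 over all genes. Axin2, a negative regulator that Wnt signalling itself induces, had 8.18, 5.75, 7.7 and 6.51 CPM with DSS, against 31.2, 55.2, 29.8 and 52.7 CPM with water (-2.59, adjusted p = 2.36e-05). Hopx, a homeodomain protein found in reserve stem cells and in differentiated colonocytes, had 7.97, 7.52, 10.7 and 8.85 CPM with DSS, against 58.3, 59.6, 59.3 and 48.9 CPM with water (-2.69, adjusted p = 2.37e-07). In both genes each of the 4 DSS values lay below all 4 water values. Etv4, an ETS factor of the crypt base, was among the 12 steepest falls without overlap that met the level limit of 10 CPM. It had 4.08, 1.39, 1.06 and 3.1 CPM with DSS, against 26.2, 64, 25.6 and 16.1 CPM with water (-3.75, adjusted p = 0.000228). Not every member went down. Nkd1, an intracellular Wnt antagonist, rose (1.08, adjusted p = 0.00449), as did Bmi1, a polycomb protein (0.69, adjusted p = 0.00609). Lrig1, a growth factor receptor regulator of crypt base cells, overlapped between the groups, at 117.3, 124.9, 159.9 and 161.3 CPM with DSS, against 141.3, 195.8, 112.4 and 165.3 CPM with water.

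Cell cycle genes fell almost throughout. Of 29 cell cycle genes, all tested, 28 fell, none rose, and in 27 the groups did not overlap, with a median log2 fold change of -1.75. Cdk1, the kinase that drives entry into mitosis, had 16.6, 5.91, 2.92 and 13.8 CPM with DSS, against 42.4, 69.9, 65.3 and 33.2 CPM with water (-2.41, SE 0.60, adjusted p = 0.00563). DSS replicate 3 was the lowest and DSS replicate 1 the highest of the DSS libraries. The same order of DSS libraries held for Mki67, the proliferation antigen Ki-67, with 139.5, 32.9, 13.5 and 55.1 CPM with DSS, against 230.8, 358.4, 251.2 and 169.2 CPM with water (-2.06, adjusted p = 0.0305). The Mki67 call was lost without DSS replicate 2, 3 or 4 or water replicate 2 (adjusted p = 0.0667 to 0.0847). Ccnb2, a mitotic cyclin, fell by 2.47 on the log2 scale and Aurkb, a kinase of chromosome segregation, by the same amount. Pbk, a mitotic kinase, was among the 12 steepest falls (-3.14, adjusted p = 0.00251). Ccnd1, the G1 cyclin, was the member that did not pass, at 79.2, 52.4, 54.6 and 46.7 CPM with DSS, against 71.3, 100.5, 73.7 and 90.9 CPM with water.

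Because 28 of the 29 members moved together, their promoters are shown. Elements known from promoters of mitotic genes, the CCAAT box and the cell cycle homology region TTTGAA, were searched on both strands in the 250 bases before the start in RefSeq (GRCm38.p6). CCAAT was found before 17 of the 23 cell cycle genes with a RefSeq promoter (73.9%), against 39.7% of 11271 tested genes with one, and TTTGAA before 6 (26.1%), against 13.2%. Both stood before 6 of the 23 (26.1%), against 4.87%. The last 150 bases before the start of 3 that hold both are printed on the gene's own strand, with CCAAT and TTTGAA, read on either strand, in capitals. Top2a encodes the topoisomerase that untangles sister chromosomes and Cdc20 an activator of the anaphase-promoting complex. A match describes the letters and is no evidence of binding.
Cdk1 (chr10:69352913-69353062, minus strand): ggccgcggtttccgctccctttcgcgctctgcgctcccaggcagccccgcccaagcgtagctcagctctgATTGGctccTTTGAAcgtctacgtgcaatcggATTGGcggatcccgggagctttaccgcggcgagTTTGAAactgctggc
Top2a (chr11:99024190-99024339, minus strand): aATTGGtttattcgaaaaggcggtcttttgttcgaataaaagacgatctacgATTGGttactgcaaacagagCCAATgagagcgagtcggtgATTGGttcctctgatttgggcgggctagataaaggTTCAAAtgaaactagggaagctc
Cdc20 (chr4:118437344-118437493, minus strand): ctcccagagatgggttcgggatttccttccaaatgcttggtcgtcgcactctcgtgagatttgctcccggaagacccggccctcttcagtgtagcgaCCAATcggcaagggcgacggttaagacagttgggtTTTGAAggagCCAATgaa

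Top2a had 51.7, 17.9, 9.91 and 38.1 CPM with DSS, against 109.6, 185.4, 149.7 and 116.3 CPM with water (-2.25, adjusted p = 0.00995), and Cdc20 had 17.5, 4.91, 2.36 and 11.6 CPM with DSS, against 36.4, 56.7, 47.8 and 27.3 CPM with water (-2.20, adjusted p = 0.0171). Neither gene's groups overlapped, and the Cdc20 call was lost without DSS replicate 2 (-1.99, adjusted p = 0.0533). The p53 target list gave 4 rises and 2 falls among 17 tested members of 18, near the 23.1% that rose and 16.1% that fell over all genes tested. Cdkn1a, the cell cycle inhibitor p21, had 130.6, 144.0, 186.2 and 313.9 CPM with DSS, against 411.8, 202.3, 342.4 and 221.1 CPM with water, and did not pass (adjusted p = 0.136).

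Most junction, ion transport and brush border genes did not pass, and a few fell steeply. Cldn2, a pore-forming claudin of the crypt base (chromosome X, 139800808 to 139811388 on mm10), had 42, 2.52, 3.07 and 3.06 CPM with DSS, against 187.6, 334.2, 201.5 and 207.6 CPM with water. DSS replicates 2 to 4 lay close together and DSS replicate 1 between them and the water libraries (-4.20, SE 0.80, adjusted p = 0.00107). Without DSS replicate 1 the log2 fold change was -6.34 (adjusted p = 2.19e-06). Cldn15, another pore-forming claudin, fell (-2.30), as did Ocln, which encodes occludin (-0.59, adjusted p = 0.00627). Cldn4, a sealing claudin, had 26.5, 50.4, 40.8 and 85.1 CPM with DSS, against 168.7, 138.9, 204.0 and 49.5 CPM with water (-1.47, adjusted p = 0.0178), with water replicate 4 inside the DSS range. Of 24 junction genes, 5 fell and none rose, with a median of -0.15, and limma's voom test called 9 falls and 2 rises. Dsp and Dsg2, desmosomal proteins, had overlapping groups.

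The chloride channel Cftr had 70, 16.1, 15.1 and 26.2 CPM with DSS, against 102.6, 97.8, 80.5 and 110.3 CPM with water (-1.62, adjusted p = 0.00289). Slc12a2, the basolateral chloride importer that feeds it, had 88.4, 80.8, 72.3 and 123.7 CPM with DSS, against 196.8, 266.0, 208.3 and 230.6 CPM with water (-1.30, adjusted p = 0.000665), and Slc4a4, a bicarbonate cotransporter, fell too (-1.37, adjusted p = 0.00157). All 4 DSS values lay below all 4 water values in these 3 genes. They were the 3 falls among 27 ion and water transport genes, of which Aqp4, a water channel, rose (1.35, adjusted p = 0.0181), a call lost without DSS replicate 1 (0.86, adjusted p = 0.0842) or without water replicate 1, 3 or 4. In limma's voom test 10 of the 27 fell. The remaining 23 did not pass in edgeR's test, among them Car1 and Car4, the carbonic anhydrases of surface colonocytes. Of 26 brush border and colonocyte genes, 2 rose and 2 fell. Cdx1, an intestinal identity factor, fell (-0.78, adjusted p = 0.00512), and Elf3, an epithelial ETS factor, rose (0.91, adjusted p = 0.0107).

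Goblet cell genes, which encode mucus and its makers, moved in both directions, in numbers not far from those of all genes. Of 20 tested, 3 rose and 5 fell, with a median of 0.11. Over all genes tested 23.1% rose and 16.1% fell. The mucins Muc2 and Muc3 were not found by symbol and are not covered. Fcgbp, a mucus protein, had 3503, 5191, 2294 and 3719 CPM with DSS, against 2192, 1552, 2094 and 2037 CPM with water (0.90, adjusted p = 0.00794). Muc1, a membrane mucin, rose (1.63, adjusted p = 0.00179). Atoh1, the transcription factor that commits cells to the secretory fate, had 27.3, 19.1, 8.81 and 24.9 CPM with DSS, against 26.5, 46.9, 44.2 and 51.9 CPM with water (-1.08, adjusted p = 0.0269), with DSS replicate 1 inside the water range. Klk1, a tissue kallikrein, fell (-1.10, adjusted p = 0.0244). Leaving out any of 4 single libraries ended the Atoh1 call (adjusted p = 0.0514 to 0.0702) and any of 4 the Klk1 call (0.0557 to 0.0611). The 5 falls became 2 without DSS replicate 2 or without DSS replicate 3, and 3 without water replicate 1, 2 or 3. Of 15 enteroendocrine genes, 6 rose, including Pyy, the peptide YY hormone of the distal gut (0.82, adjusted p = 0.0188), and Gcg, which encodes glucagon-like peptides (1.30, adjusted p = 0.0219). That count was 2 without DSS replicate 2 or water replicate 1, 0 without water replicate 3 and 3 without water replicate 4. Neither the Pyy nor the Gcg call held without DSS replicate 2, with 0.60 (adjusted p = 0.0829) for Pyy and 0.81 (adjusted p = 0.119) for Gcg, nor without water replicate 3 or without water replicate 4.

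Antimicrobial and other defence proteins of the epithelium mostly rose, with 14 higher and 3 lower among 22, all tested, and a median of 1.42. Slpi, a secreted inhibitor of neutrophil elastase, had 49.1, 242.0, 104.4 and 307.7 CPM with DSS, against 7.16, 11.4, 11.2 and 4.55 CPM with water. The lowest DSS library was several times the highest water library (4.37, SE 0.51, adjusted p = 7.18e-05). Nos2, the inducible nitric oxide synthase, had 21.5, 58.4, 18.9 and 34.9 CPM with DSS, against 3.43, 2.01, 2.25 and 3.34 CPM with water (3.59, adjusted p = 0.000109). Duox2, an oxidase that makes hydrogen peroxide at the mucosal surface, had 289.9, 495.6, 155.3 and 275.7 CPM with DSS, against 82.3, 102.6, 62.6 and 75.7 CPM with water (1.91, adjusted p = 0.00284). Neither gene's groups overlapped.

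Dmbt1, a scavenger protein that binds bacteria and was among the most abundant transcripts, had 10641, 12850, 7688 and 7303 CPM with DSS, against 4787, 1889, 4076 and 3697 CPM with water (1.41, adjusted p = 0.00261). Saa3, an acute phase protein, had 1.47, 3.89, 4.18 and 103.1 CPM with DSS, against 0.191, 1.5, 0.303 and 0.165 CPM with water, so that DSS replicate 4 alone held most of it (6.04, adjusted p = 0.00392). Without that library its log2 fold change was 2.84 (adjusted p = 0.0334), and without replicate 4 of any wall group it did not pass (2.44, adjusted p = 0.0829). Saa3 has close paralogs, so its reads may be shared with them.

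The 3 members that fell did so steeply or from low levels. Reg4, a lectin of secretory cells at the crypt base, had 157.1, 12.7, 13 and 22.8 CPM with DSS, against 449.7, 1854, 484.6 and 285.0 CPM with water (-3.90, adjusted p = 0.00181). Nox1, the superoxide-producing oxidase of colon crypts, had 7.51, 0.409, 0.0503 and 0.335 CPM with DSS, against 19.1, 36, 19.5 and 22.9 CPM with water (-3.54, adjusted p = 0.0069), or -6.35 (adjusted p = 4.33e-05) without DSS replicate 1. In both, DSS replicate 1 was the DSS library nearest to the water libraries. Noxo1, the organiser subunit of that oxidase, had 102.2, 116.4, 112.7 and 85.4 CPM with DSS, against 109.8, 116.6, 100.9 and 89 CPM with water, and its log2 fold change was 0.00 (adjusted p = 0.994). Pigr, which carries antibodies into the lumen, also overlapped (0.01).

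**Figure D2:**
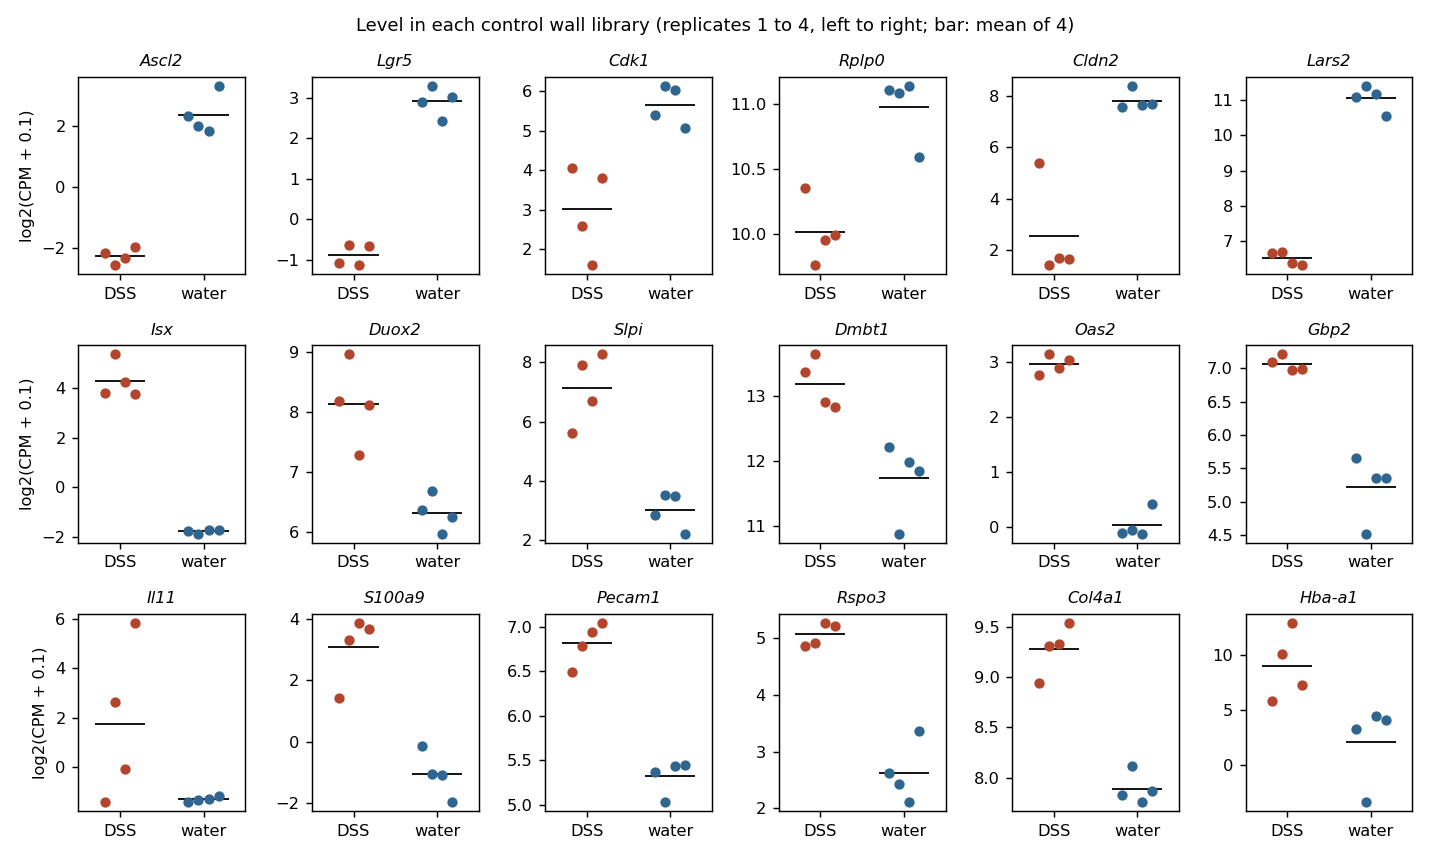
Level of 18 genes named in the text in each control wall library, as log2(CPM + 0.1), with the 4 DSS libraries left of the 4 water libraries and a bar at each mean. Ascl2, Lgr5, Lars2, Oas2 and Pecam1 separate the groups in tight clusters, whereas Il11 and Hba-a1 spread widely among the DSS libraries and Cldn2 and Cdk1 show DSS replicate 1 nearest to water.

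Cytokine genes rose from very low levels, and by amounts that differed between the DSS libraries. Of 26 genes of the IL-1, IL-6, TNF, IL-10 and IL-17 families, 21 were expressed enough to be tested, and 13 of these rose and none fell, with a median of 1.19. Some were close to 0 CPM with water and passed the filter on low counts through DSS libraries. The count and the median are therefore partly set by that filter. Il11, an IL-6 family cytokine of stromal cells, had 0.276, 6.07, 0.855 and 57.6 CPM with DSS, against 0.277, 0.3, 0.303 and 0.348 CPM with water (5.71, SE 1.44, adjusted p = 0.00598). DSS replicate 1 was no higher than the water libraries and DSS replicate 4 was far above the rest. Il1b, the classical product of the inflammasome, had 4.01, 18.9, 12.2 and 112.9 CPM with DSS, against 2.32, 1.84, 1.11 and 3.56 CPM with water (4.06, adjusted p = 0.00317), without overlap. Without DSS replicate 4 the log2 fold changes were 2.99 (adjusted p = 0.046) for Il11 and 2.40 (adjusted p = 0.0169) for Il1b, and without replicate 4 of any wall group Il11 did not pass (3.01, adjusted p = 0.0937). The count of 13 was 7 without DSS replicate 4 and 5 without replicate 4 of any wall group. Il18, an epithelial cytokine, did not pass, with 168.2, 224.1, 193.5 and 178.6 CPM with DSS, against 194.5, 87.4, 202.5 and 115.8 CPM with water.

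On the receiving side, 15 of 27 receptor and feedback genes rose and 1 fell. Socs3, an inhibitor that STAT3 signalling induces, had 118.1, 198.5, 295.8 and 208.7 CPM with DSS, against 44.2, 40.8, 31.9 and 9.4 CPM with water (2.70, adjusted p = 0.00132). Osmr, the oncostatin M receptor of stromal cells, had 28.7, 48.5, 32.7 and 63 CPM with DSS, against 8.85, 17.9, 8.36 and 10.7 CPM with water (1.93, adjusted p = 0.00217). Both separated the groups. Csf3r, the G-CSF receptor of neutrophils, rose (2.44, adjusted p = 0.00032). The single fall was Il22ra2, a soluble decoy receptor for IL-22 (-1.67, adjusted p = 0.0145).

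Of 31 chemokines, all tested, 18 rose and 2 fell, with a median of 1.35. Some were close to 0 CPM with water and passed the filter on low counts through DSS libraries. The count and the median are therefore partly set by that filter. Ccl8, a ligand that draws monocytes and T cells, had 17.5, 54.4, 20 and 63 CPM with DSS, against 3.57, 2.23, 3.13 and 2.95 CPM with water (3.70, SE 0.42, adjusted p = 5.54e-05). Every DSS library was several times higher than every water library. Cxcl2, a neutrophil attractant, had 0.644, 2.41, 1.66 and 22.8 CPM with DSS, against 0.399, 0.642, 0.146 and 0.13 CPM with water (4.59, adjusted p = 0.00337), with DSS replicate 4 far above the other DSS libraries and a log2 fold change of 2.44 (adjusted p = 0.0228) without it. Ccl25, a gut-homing chemokine, fell (-0.88, adjusted p = 0.00667). The count of 18 was 9 without replicate 4 of any wall group. Of the 15 chemokine receptors tested out of 16, 10 rose, among them Ccr2, the monocyte receptor for CCL2 (2.52, adjusted p = 0.000527). That count was 5 without DSS replicate 2 or without water replicate 3, and 6 without water replicate 2.

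Interferon-stimulated genes rose almost throughout. Of 29, all tested, 26 rose, none fell, and 22 had non-overlapping groups, with a median of 1.18. Oas2, an enzyme that senses double-stranded RNA, had 6.65, 8.68, 7.3 and 8.12 CPM with DSS, against 0.832, 0.856, 0.818 and 1.24 CPM with water (3.02, SE 0.50, adjusted p = 0.000474). Zbp1, a sensor of Z-form nucleic acid, had 67.9, 99.8, 75.8 and 54.8 CPM with DSS, against 16.7, 8.09, 17.9 and 12.8 CPM with water (2.42, adjusted p = 0.000136). Isg15, a ubiquitin-like modifier, had 6.01, 10.2, 28.5 and 16.2 CPM with DSS, against 3.43, 2.78, 3.63 and 2.26 CPM with water (2.32, adjusted p = 0.00148). In all 3 the lowest DSS value exceeded the highest water value. Eif2ak2, the kinase PKR, Oasl1 and Dhx58 did not pass, at 0.39, 0.23 and 0.32 log2 units.

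The GTPases that interferon-gamma induces, which attack vacuoles around intracellular microbes, rose in 12 of 14 cases, with 13 of 14 separating the groups and a median of 1.79. Gbp2 had 136.0, 147.8, 125.4 and 126.7 CPM with DSS, against 50.2, 22.8, 40.7 and 40.7 CPM with water (1.79, SE 0.25, adjusted p = 0.000148). Iigp1 had 17.7, 11.5, 11.5 and 18.4 CPM with DSS, against 3.53, 2.53, 2.41 and 3.71 CPM with water (2.27, adjusted p = 0.00262). The members that missed the threshold were Gbp4 (1.18, adjusted p = 0.0545) and Gbp8 (0.92, adjusted p = 0.0836). Several members are near-identical neighbours, so that their separate values are uncertain. The list's summed level was 390.1 to 436.9 CPM in the DSS libraries, against 108.8 to 177.9 CPM in the water libraries.

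Since these lists moved together, their promoters were searched for the core of the interferon-stimulated response element, TTTC followed after any 2 bases by another TTTC, on both strands of the 250 bases before the start. It stood before 9 of the 21 interferon-stimulated genes with a RefSeq promoter (42.9%) and before 9 of the 9 interferon-gamma inducible GTPases with one (100%), against 367 of 11271 tested genes (3.26%). The GTPases are paralogs and may share promoter sequence by descent. For comparison, 1 of 23 cell cycle genes (4.35%) held it. The 150 bases before the start of 3 interferon-stimulated genes are printed on the gene's own strand, with that core or its reverse complement in capitals. These 3 were picked by size of rise among members that hold the core there, so they do not stand for the list. Oas2, which rose more, is not among them. Capitals run on where matches overlap, as before Isg15. Ifit1 and Ifit3 encode proteins that bind foreign RNA or its partners.
Ifit1 (chr19:34640739-34640888, plus strand): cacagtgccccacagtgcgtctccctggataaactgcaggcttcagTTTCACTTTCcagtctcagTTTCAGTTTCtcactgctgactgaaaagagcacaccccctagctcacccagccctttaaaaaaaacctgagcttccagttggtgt
Ifit3 (chr19:34583379-34583528, plus strand): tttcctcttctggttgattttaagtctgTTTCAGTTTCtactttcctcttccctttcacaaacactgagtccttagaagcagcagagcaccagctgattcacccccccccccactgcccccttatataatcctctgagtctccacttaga
Isg15 (chr4:156200819-156200968, minus strand): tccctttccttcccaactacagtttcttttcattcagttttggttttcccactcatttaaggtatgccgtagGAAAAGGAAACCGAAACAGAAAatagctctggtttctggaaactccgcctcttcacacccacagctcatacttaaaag

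Ifit1 had 11.7, 16, 42.4 and 29.5 CPM with DSS, against 6.39, 2.91, 4.99 and 3.45 CPM with water (2.48, SE 0.46, adjusted p = 0.000878), and Ifit3 had 11.7, 15.1, 45.6 and 26.1 CPM with DSS, against 5.86, 3.64, 5.25 and 5.74 CPM with water (2.25, adjusted p = 0.000399). In both, DSS replicate 3 was the highest library and no DSS value reached down into the water range.

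Some class I antigen presentation genes rose, and no class II gene passed. Of 15 class I presentation genes, 8 rose and none fell, with a median of 0.42. The largest rise was that of Nlrc5, the class I transactivator (1.59, adjusted p = 0.0109), and the classical class I heavy chain H2-K1 did not pass, at 596.2, 827.1, 829.8 and 757.4 CPM with DSS, against 1045, 820.2, 1098 and 788.3 CPM with water. The count of 8 lay between 2 and 5 without any one of DSS replicates 2, 3 and 4 and water replicates 2, 3 and 4. Of 10 class II genes, 0 passed in edgeR's test, in DESeq2 and in limma's voom test, and 0 had an unadjusted p below 0.05 in edgeR's test, with a median of 0.31. Cd74, the class II invariant chain, had 263.5, 597.4, 473.3 and 634.1 CPM with DSS, against 553.1, 166.1, 382.6 and 441.2 CPM with water. The lowest level among the 8 libraries was in water replicate 2.

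Complement genes rose almost throughout. Of 20 tested members out of 21, 17 rose and none fell, 15 without overlap, with a median of 1.49. C4b, a component of the classical pathway, had 151.2, 245.3, 184.4 and 314.6 CPM with DSS, against 61.2, 39, 46.3 and 68.7 CPM with water (2.06, SE 0.33, adjusted p = 0.000353). C1qb, a C1q chain made by macrophages, had 51.9, 100.5, 55.2 and 164.2 CPM with DSS, against 28.6, 20.2, 27.6 and 26.4 CPM with water (1.85, adjusted p = 0.00043). The groups stayed apart in both, and DSS replicate 4 was the highest library in each. Cfd, the adipocyte-derived factor D, did not pass, with its highest value, 82.1 CPM, in water replicate 2.

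In the prostaglandin and leukotriene pathway, 11 of 27 tested members rose and 4 fell. Ptgs2, the inducible cyclooxygenase, had 3.25, 7.57, 2.31 and 123.6 CPM with DSS, against 4.8, 4.2, 4.64 and 6.93 CPM with water (2.73, adjusted p = 0.04). Apart from DSS replicate 4, its libraries overlapped, and without that library the direction turned (-0.22, adjusted p = 0.809), while leaving out any 1 water library also ended the call (adjusted p = 0.0591 to 0.0935). Alox15, a lipoxygenase of eosinophils and macrophages, had 0.735, 1.41, 2.26 and 0.959 CPM with DSS, against 6.46, 3.64, 4.43 and 7.46 CPM with water (-2.07, adjusted p = 0.00212). The count of 11 was 7 without water replicate 1 and 6 without water replicate 3. Of 29 pattern recognition and inflammasome genes, 13 rose and none fell, led by Tlr8, a receptor for single-stranded RNA (2.21, adjusted p = 0.0089), and without DSS replicate 4 that count was 8 and Tlr8 did not pass (1.38, adjusted p = 0.0601).

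Markers of myeloid cells rose. Of 19 neutrophil genes in the files, 12 passed the filter on low counts, and of those 11 rose and 1 fell. Several were close to 0 CPM with water and passed that filter through the DSS libraries, so the count is partly set by the filter. The list's summed level was 82.2 to 145.7 CPM in the DSS libraries, against 121.6 to 245.2 CPM in the water libraries. Most of it was Cd177, except in DSS replicate 3. S100a9, a calcium-binding protein that fills neutrophils, had 2.6, 9.75, 14.5 and 12.6 CPM with DSS, against 0.797, 0.385, 0.37 and 0.157 CPM with water (4.55, SE 0.57, adjusted p = 8.7e-05). Its partner S100a8 had 1.5, 5.29, 9.26 and 7.56 CPM with DSS, against 0.502, 0.0428, 0.213 and 0.183 CPM with water (4.55, adjusted p = 0.000163). DSS replicate 1 was the lowest DSS library in both, and still above all 4 water libraries. Cd177, which encodes a neutrophil surface protein and was already abundant in the water libraries, was the fall. It had 126.5, 42.7, 45.6 and 65 CPM with DSS, against 151.8, 234.3, 138.5 and 113.4 CPM with water (-1.19, adjusted p = 0.0191). In caNrf2 mice it was higher in epithelial cells than in untreated wall (2.67 log2 units, adjusted p = 0.000845 in edgeR's test). Its level and the list's sum therefore need not follow neutrophils. The Cd177 call was lost without DSS replicate 2 or 3 or water replicate 2 (adjusted p = 0.0579 to 0.0671). With a limit of 1 CPM in 4 libraries 7 members rose, and 5 rose when the 8 control libraries were fitted alone.

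Of 17 monocyte and macrophage genes, 14 rose and none fell, with a median of 1.69. Fcgr1, the high-affinity IgG receptor, had 3.92, 6.63, 2.31 and 14 CPM with DSS, against 0.762, 0.728, 1.01 and 1.04 CPM with water (2.91, adjusted p = 0.000335). Mertk, a receptor by which resident macrophages take up dead cells, did not pass, at 34.4, 26.6, 18.9 and 29.2 CPM with DSS, against 28.6, 22.8, 19.9 and 29.4 CPM with water. The list's summed level spanned 333.4 to 993.9 CPM in the DSS libraries and 160.4 to 270.7 CPM in the water libraries. Mucosal mast cell proteases also rose: Mcpt2 had 2.02, 3.68, 1.41 and 3.72 CPM with DSS, against 0.329, 0.257, 0.269 and 0.113 CPM with water (3.53, adjusted p = 0.000102). At these water levels Mcpt2 may have passed the filter on low counts through DSS libraries. Cma1, a protease of connective tissue mast cells, did not pass (-0.85, adjusted p = 0.155).

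Of 17 T and NK cell genes, 8 rose, including Cd4 (2.01, adjusted p = 0.00236), Gzmb, the cytotoxic protease granzyme B (2.07, adjusted p = 0.00206), and Foxp3, the regulator of regulatory T cells (1.96, adjusted p = 0.00643). Gzmb and Foxp3 were below 1 CPM in every water library and may have passed the filter on low counts through DSS libraries. The count may therefore be partly set by that filter. Lck, a kinase of all T cells, overlapped, with 2.64, 8.57, 7.95 and 3.92 CPM with DSS, against 5.82, 3.85, 4.75 and 4.75 CPM with water. Of 12 B and plasma cell genes, 1 rose, Prdm1, the regulator of plasma cell formation (1.61, adjusted p = 0.00573, and 1.06, adjusted p = 0.029 without DSS replicate 4). Cd79a, part of the B cell receptor, ran from 5.82 to 44.6 CPM with DSS and from 7.28 to 51.8 CPM with water. Ptprc, the pan-leukocyte gene CD45, had 20, 54.4, 38 and 50.7 CPM with DSS, against 41.4, 9.68, 27.4 and 49.4 CPM with water, and did not pass (0.35, adjusted p = 0.558).

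**Figure D3:**
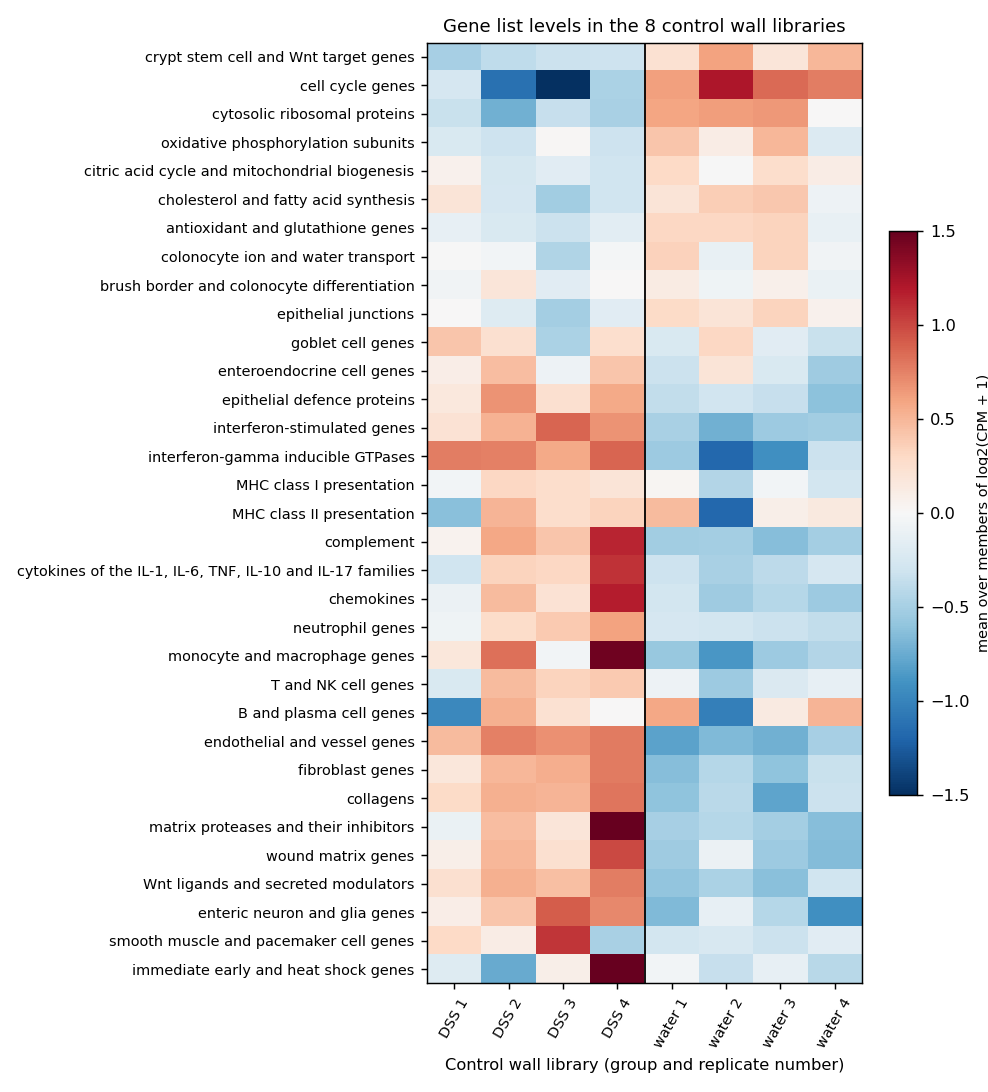
Mean level of 33 gene lists in each of the 8 control wall libraries, DSS replicates 1 to 4 left of water replicates 1 to 4, coloured by the mean over members of log2(CPM + 1) minus the mean of the 8 libraries, where values beyond the scale take its end colour. Endothelial genes and interferon-gamma inducible GTPases are even across the 4 DSS libraries, whereas matrix proteases and immediate early genes are highest in DSS replicate 4, smooth muscle genes in DSS replicate 3, and B and plasma cell genes follow no group.

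Blood vessel genes rose without exception. All 17 endothelial and vessel genes were tested and rose, and in all 17 the groups did not overlap, with a median of 1.50. Pecam1, the adhesion molecule CD31 of endothelial cells, had 90.1, 109.7, 122.8 and 132.2 CPM with DSS, against 41.2, 32.6, 43.1 and 43.6 CPM with water (1.50, SE 0.15, adjusted p = 2.21e-05). Tek, the angiopoietin receptor, had 22.5, 27.2, 22.8 and 24.1 CPM with DSS, against 5.2, 5.31, 6.28 and 7.5 CPM with water (1.99, adjusted p = 2.76e-05). Flt4, the lymphatic VEGF receptor, rose as well (1.78, adjusted p = 7.88e-05). The list's summed level was 490.9 to 669.3 CPM with DSS, against 195.8 to 230.9 CPM with water. Of 16 endothelial activation and angiogenic genes, 12 rose and none fell. Selp, the P-selectin that catches rolling leukocytes, had 14.4, 21.6, 26.1 and 38.9 CPM with DSS, against 3.69, 2.57, 5.1 and 2.5 CPM with water (2.86, adjusted p = 0.000155). Vegfa, the main angiogenic factor, did not pass, at 62.1, 69.7, 98 and 102.7 CPM with DSS, against 87.1, 78, 72.6 and 88.7 CPM with water.

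Fibroblast and matrix genes followed. Of 14 fibroblast genes, 12 rose and none fell, with a median of 1.04. Pdgfra, a growth factor receptor of subepithelial fibroblasts, had 98.9, 141.2, 74.5 and 195.2 CPM with DSS, against 28.2, 32.6, 26.4 and 49.5 CPM with water (1.90, adjusted p = 0.000416). Foxl1, a factor of the telocytes that lie beside the crypts, did not pass, with 1.07, 1.14, 0.403 and 1.72 CPM with DSS, against 1.47, 1.03, 1.32 and 2.42 CPM with water. Of 23 collagens, 20 rose and none fell, with a median of 1.22. Col3a1, a fibrillar collagen, had 944.8, 1125, 782.1 and 1615 CPM with DSS, against 394.6, 418.2, 377.9 and 467.5 CPM with water (1.43, adjusted p = 0.00117). The basement membrane chain Col4a1 had 490.5, 633.3, 642.7 and 744.9 CPM with DSS, against 226.7, 276.6, 216.4 and 233.4 CPM with water (1.40, adjusted p = 0.000136). Both separated the groups. The collagen genes are long, with a median exonic length of 6086 bases, and long genes of all kinds were more often higher with DSS, as given below.

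Of 26 matrix proteases and inhibitors tested out of 27, 21 rose and none fell, with a median of 1.52. Mmp10, a stromelysin, had 2.97, 10.4, 3.17 and 146.8 CPM with DSS, against 1.26, 0.343, 0.695 and 0.618 CPM with water (5.76, adjusted p = 0.00379, and 2.89, adjusted p = 0.0253 without DSS replicate 4). Without replicate 4 of any wall group it did not pass (2.74, adjusted p = 0.0578). Mmp3, a related stromelysin, had 16.4, 35.7, 36.7 and 175.1 CPM with DSS, against 6.65, 1.5, 3.71 and 8.69 CPM with water (3.66, adjusted p = 0.00175). DSS replicate 4 was by far the highest library in both genes, and the list's 21 rises were 12 without replicate 4 of any wall group. Plaur, which anchors plasminogen activation at the cell surface, ran otherwise and had 5.24, 15.4, 8.25 and 30.8 CPM with DSS, against 25.2, 29.5, 42.2 and 4.77 CPM with water. Water replicate 4 was the lowest water library, and the gene did not pass. Of 15 wound matrix genes, 13 rose and none fell, among them Vcan, the proteoglycan versican (1.95, adjusted p = 0.00391), and Tgm2, a crosslinking transglutaminase (1.36, adjusted p = 0.000172). Thbs1, a matricellular protein, had 142.7, 209.0, 104.2 and 640.6 CPM with DSS, against 422.5, 503.9, 368.2 and 93.3 CPM with water, again with water replicate 4 apart from the other water libraries. Without replicate 4 of any wall group 8 of the 15 rose.

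Secreted Wnt pathway genes rose in most cases, and BMP and hedgehog genes in fewer. Of 22 Wnt ligands and secreted modulators, 19 were tested, 13 rose and none fell, with a median of 1.59. Rspo3, an R-spondin that strengthens Wnt signalling through Lgr receptors, had 29, 30, 38.5 and 37.1 CPM with DSS, against 6.05, 5.27, 4.23 and 10.2 CPM with water (2.38, SE 0.28, adjusted p = 7.72e-05). Wnt2b, a ligand of the canonical pathway, had 16.6, 26.2, 4.93 and 12.3 CPM with DSS, against 1.78, 3.21, 1.31 and 3.08 CPM with water (2.70, adjusted p = 0.000514). Sfrp2, a secreted Frizzled-related protein, had 26.7, 30.8, 22 and 47.9 CPM with DSS, against 4.09, 6.64, 2.66 and 5.54 CPM with water (2.77, adjusted p = 8.51e-05). None of the 3 overlapped between the groups. Among BMP and hedgehog genes, 9 of 22 tested members rose and 2 fell. Grem1, a BMP antagonist of the crypt mesenchyme, had 98.5, 166.4, 91 and 206.1 CPM with DSS, against 21.1, 43.6, 14.6 and 33.8 CPM with water (2.32, adjusted p = 0.00161). The hedgehog targets Hhip and Gli1 were the falls, at -1.41 and -1.06 log2 units (adjusted p = 0.00975 and 0.00779), while the ligand Ihh overlapped (0.10).

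Of 12 EGF receptor ligands and receptors tested out of 13, 4 rose. Nrg1, a neuregulin of stromal cells, had 8.18, 12, 3.12 and 26.7 CPM with DSS, against 1.91, 1.58, 1.89 and 2.54 CPM with water (2.65, adjusted p = 0.00233). Ereg, the ligand epiregulin, had 8.7, 31.4, 13.7 and 318.7 CPM with DSS, against 9.89, 8.26, 8.59 and 8.96 CPM with water, and DSS replicate 1 lay inside the water range (3.38, adjusted p = 0.012). Without DSS replicate 4 it did not pass (1.01, adjusted p = 0.228). Of 16 tested genes linked to regenerating epithelium and the YAP pathway, 6 rose and 1 fell. Ly6a, the surface protein Sca-1 that marks repairing colon epithelium and also vessels, had 845.4, 1650, 928.9 and 1122 CPM with DSS, against 239.0, 195.1, 322.7 and 227.3 CPM with water (2.21, SE 0.24, adjusted p = 4.46e-05). Clu and Anxa1, other members of that list, did not pass (0.26 and 0.23).

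Nerve genes rose in most cases, and muscle genes in fewer. Of 15 enteric neuron and glia genes, 12 rose, none fell and 10 did not overlap, with a median of 1.02. Sox10, the transcription factor of enteric glia, had 9.32, 10, 15 and 9.83 CPM with DSS, against 1.85, 3.9, 2.34 and 4.13 CPM with water (1.85, adjusted p = 0.000462). Nos1, the nitric oxide synthase of inhibitory motor neurons, had 20, 29.8, 33.7 and 27.3 CPM with DSS, against 9.84, 10.7, 8.41 and 5.77 CPM with water (1.68, adjusted p = 0.00102). Of 15 smooth muscle and pacemaker genes, 7 rose, a count that was 4 without DSS replicate 3 and 4 without water replicate 3. Myh11, the smooth muscle myosin, had 4145, 3811, 7609 and 2038 CPM with DSS, against 3151, 2388, 2491 and 3063 CPM with water, where DSS replicate 4 was the lowest and DSS replicate 3 the highest of all 8. Immediate early genes also hung on single libraries. Fos had 352.9, 103.7, 305.4 and 2231 CPM with DSS, against 93.9, 45.2, 63.1 and 286.0 CPM with water (2.61, adjusted p = 0.0129), and the 10 rises among 20 immediate early and heat shock genes were 5 without DSS replicate 4 and 6 without water replicate 3. Fos itself did not pass without DSS replicate 4 (1.06, adjusted p = 0.145).

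Cytosolic ribosomal protein genes fell almost without exception. Of 78 cytosolic ribosomal protein genes, all tested, 77 fell, none rose, and 72 did not overlap, with a median of -0.96. Their summed level was 34255, 25399, 33255 and 30420 CPM in the DSS libraries, against 65004, 66569, 66307 and 42829 CPM in the water libraries. Water replicate 4 lay between the other water libraries and the DSS libraries. Rplp0, a protein of the ribosomal stalk, had 1311, 865.3, 990.7 and 1021 CPM with DSS, against 2208, 2171, 2257 and 1547 CPM with water (-0.97, SE 0.21, adjusted p = 0.00211). Rps18, a small-subunit protein, had 357.4, 259.2, 311.7 and 368.4 CPM with DSS, against 902.3, 875.3, 859.7 and 484.0 CPM with water (-1.27, adjusted p = 0.00117). Many of these genes have processed pseudogenes that share reads. Rpl26, at 2.97, 2.66, 0.956 and 1.74 CPM with DSS, against 3.03, 7.49, 3.27 and 2.54 CPM with water, was the member that did not pass.

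Transcript length moved with the DSS effect over the whole genome, and the ribosomal protein genes are short, with a median exonic length of 694 bases. When the 16074 genes were divided by exonic length into quintiles, 13.3, 18.8, 21.4, 27.7 and 34.3% of genes rose from the shortest to the longest quintile, and 25.5, 20.7, 16.4, 10.9 and 6.97% fell. Median log2 fold changes ran from -0.25 in the shortest quintile, up to 1543 bases, to 0.30 in the longest, from 4481 bases. Across genes, which are not independent replicates, length and log2 fold change had a Spearman correlation of 0.25, and of 0.33 over the 12509 genes that were not past 2 log2 units with an adjusted p below 0.05 between epithelial cells and wall, a class defined below. Some short or structured RNAs without the usual poly(A) tail also fell. Rn45s, the ribosomal RNA precursor, had 832.6, 1020, 817.8 and 558.0 CPM with DSS, against 4592, 3495, 1960 and 1019 CPM with water (-1.78, adjusted p = 0.00135), and Rmrp, the RNA of RNase MRP, fell too (-3.40, adjusted p = 0.00148). The part of length and RNA handling in the changes of short or long genes was not tested. The median length was 2860 bases for the cell cycle list and 2638 bases for the interferon-stimulated list, both inside the range of the middle quintile. Single members may be shorter or longer, and the part of length in their changes was not tested either.

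**Figure D4:**
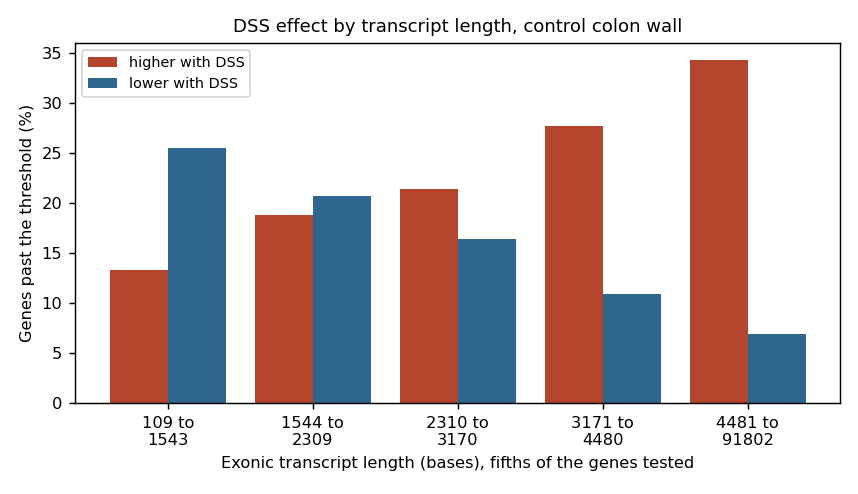
Percentage of genes past the threshold, higher with DSS and lower with DSS, in quintiles of the genes tested by exonic transcript length in bases. The share that rose climbs from 13.3% to 34.3% and the share that fell drops from 25.5% to 6.97% between the shortest and the longest quintile.

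Most oxidative phosphorylation genes did not pass. Of 75 oxidative phosphorylation subunits, whose median length is 679 bases, 10 fell and none rose, a share below the 16.1% of all genes that fell, with a median of -0.45. Ndufa10, a complex I subunit, had 105.0, 77.6, 88.5 and 76.1 CPM with DSS, against 156.2, 128.1, 146.3 and 107.7 CPM with water (-0.63, adjusted p = 0.0111). The count of 10 was unstable, at 1 without DSS replicate 2, 2 without DSS replicate 4 and without water replicate 1 or 3, and 42 without water replicate 4. It was 22 with RLE scaling, 26 in DESeq2 and 70 in limma's voom test, so how many of these subunits fell depends on the method, while no method called a rise. Of 18 citric acid cycle and mitochondrial biogenesis genes, 10 fell and 1 rose. Tfam, which packages mitochondrial DNA, had 27.2, 22.6, 26.1 and 24.3 CPM with DSS, against 40.8, 41.7, 43.6 and 37.5 CPM with water (-0.71, SE 0.11, adjusted p = 0.000253), and Idh3a, a citric acid cycle dehydrogenase subunit, fell (-0.91, adjusted p = 0.00367). The count of 10 was 6 without DSS replicate 2.

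Lars2, the mitochondrial leucyl-tRNA synthetase (chromosome 9, 123366940 to 123462664 on mm10), had the largest fall among genes that passed without overlap and averaged at least 10 CPM in 1 group. It had 101.8, 103.2, 84.3 and 79.7 CPM in the DSS libraries, against 2178, 2686, 2302 and 1484 CPM in the water libraries (-4.55, SE 0.25, adjusted p = 2.76e-08). All 4 DSS libraries lay close together and far below the lowest water library. Its place as the largest fall depended on DSS replicate 1, without which the falls of Cldn2, Nox1, Cbs and Gsta3, given with those genes, were steeper. Beside it, the ribosomal RNA precursor Rn45s and the RNA Rmrp also fell in these libraries, as given above, and the part of RNA handling in the fall of Lars2 was not tested.

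Among the lipid genes, 8 of 24 in cholesterol and fatty acid synthesis fell and 1 rose. That count of 8 was 16 without DSS replicate 1 and between 2 and 4 without any other single control library except water replicate 4. Of 24 tested fatty acid oxidation and PPAR genes, 6 fell and 1 rose. Pparg, a nuclear receptor of colonocytes and fat, had 31.6, 34.1, 22 and 31.9 CPM with DSS, against 78.8, 65.4, 95.1 and 30.3 CPM with water (-1.17, adjusted p = 0.00419), and Hadh, an enzyme of fatty acid oxidation, fell (-0.86, adjusted p = 0.00853).

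Among detoxification genes, falls outnumbered rises. Of 30 antioxidant and glutathione genes, 9 fell and 2 rose, and of 35 tested xenobiotic genes 7 fell and 1 rose. Over all genes tested 16.1% fell and 23.1% rose. Gpx2, the glutathione peroxidase of gut epithelium, had 255.8, 169.5, 102.4 and 143.8 CPM with DSS, against 693.4, 1071, 753.0 and 296.6 CPM with water (-2.07, SE 0.31, adjusted p = 0.000274). Gsta3, a glutathione transferase with close paralogs, had 12.5, 0.795, 0.956 and 1.34 CPM with DSS, against 32.7, 40, 35.8 and 20 CPM with water (-3.04, adjusted p = 0.00593). Nqo1, a quinone reductase, fell (-1.38, adjusted p = 0.0352), and Sod3, the extracellular superoxide dismutase, rose (1.60, adjusted p = 0.000186). In Gsta3, DSS replicate 1 was the highest DSS library and still below every water library, with a log2 fold change of -4.95 (adjusted p = 8.58e-05) without it. The Nqo1 call was lost without any of 5 single libraries (adjusted p = 0.0612 to 0.0897). The 9 falls became 5 without DSS replicate 3, DSS replicate 4 or water replicate 2, and 4 without water replicate 1. Sult1a1, a sulfotransferase, had 160.0, 40.5, 56.9 and 43.1 CPM with DSS, against 416.6, 305.1, 405.6 and 300.4 CPM with water (-2.25, adjusted p = 0.00114), and the xenobiotic count of 7 was 4 without DSS replicate 2 or water replicate 1.

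Of 19 unfolded protein and ATF4 response genes, 1 rose and 1 fell, and of 23 glycolysis and hypoxia genes 4 rose and none fell. Pfkfb3, a regulator of glycolysis, had 34.4, 114.6, 61.9 and 63.2 CPM with DSS, against 20.4, 23.7, 20.1 and 15.1 CPM with water (1.80, adjusted p = 0.00876), whereas the glycolytic enzymes Gapdh, Aldoa and Ldha did not pass. Of 43 proteasome subunits tested, 9 fell and 2 rose, where 16.1% of all genes tested fell and 23.1% rose. The 2 rises were Psmb8 and Psmb9, subunits of the immunoproteasome (0.59 and 0.63, adjusted p = 0.0265 and 0.0164). The Psmb8 call was lost without any of 5 single libraries (adjusted p = 0.0536 to 0.0923) and the Psmb9 call without DSS replicate 2 (0.51, adjusted p = 0.0651). That count of 9 was 2 without DSS replicate 2, 4 without water replicate 1, 5 without DSS replicate 4 or water replicate 3, and 31 without water replicate 4. Slc39a4, a zinc importer, had 243.3, 282.0, 235.3 and 238.7 CPM with DSS, against 143.8, 126.1, 124.4 and 122.7 CPM with water (0.95, adjusted p = 0.000353), without overlap. Of 17 circadian clock genes 2 rose and none fell in edgeR's test, while limma's voom test called 5 rises and 4 falls. Among 29 tested Hox genes, 9 rose and 3 fell, the rises led by Hoxb3 (1.46) and the falls by Hoxb9 (-0.87), and 5 rose without DSS replicate 3. Hoxb9 did not pass without water replicate 2 (-0.66, adjusted p = 0.0638).

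The largest rises of all, among genes with at least 10 CPM in 1 group and no overlap, were led by red blood cell genes. Alas2, the haem synthesis enzyme of red cell precursors, had 1.81, 30.2, 337.2 and 4.68 CPM with DSS, against 0.139, 0.257, 0.706 and 0.47 CPM with water (7.76, SE 1.59, adjusted p = 0.00163). Hba-a1, an alpha globin, had 54.8, 1069, 7794 and 154.7 CPM with DSS, against 9.79, 0, 21.3 and 17.4 CPM with water (7.53, SE 1.70, adjusted p = 0.00308). DSS replicate 3 held most of this RNA and DSS replicate 1 lay within a few-fold of the water libraries. Hbb-b1, Hbb-b2, Beta-s and Hba-a2, the other globins among the 12, share reads as close copies and had the same order of DSS libraries. Without DSS replicate 3 the log2 fold changes were 4.86 (adjusted p = 0.00454) for Alas2, 4.90 (adjusted p = 0.0178) for Hbb-b1, 4.39 (adjusted p = 0.00648) for Hbb-b2, 4.61 (adjusted p = 0.0064) for Beta-s and 3.14 (adjusted p = 0.0629) for Hba-a2, which then did not pass.

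The other genes in that set belonged to no single list. AI747448, which RefSeq lists as a former symbol of Clca4b of the calcium-activated chloride channel regulator family (chromosome 3, 144910921 to 144932529 on mm10), had 624.4, 2184, 490.4 and 961.3 CPM with DSS, against 6.34, 5.69, 10.2 and 7.94 CPM with water. Even the lowest DSS value lay far above the highest water value (7.13, SE 0.87, adjusted p = 7.96e-05). Isx, the intestine-specific homeobox repressor that controls vitamin A uptake (chromosome 8, 74873174 to 74893506 on mm10), had 14, 41.5, 19.1 and 13.6 CPM with DSS, against 0.191, 0.171, 0.202 and 0.2 CPM with water. Its water libraries lay between 0.171 and 0.202 CPM, and all 4 DSS libraries lay far above them (6.81, SE 0.53, adjusted p = 1.43e-06). Chi3l1, a chitinase-like glycoprotein, had 0.981, 3.86, 2.01 and 68.8 CPM with DSS, against 0.641, 0.557, 0.392 and 0.252 CPM with water (5.43, adjusted p = 0.00418), and 9930013L23Rik, a former symbol of the hyaluronan-binding gene Cemip in RefSeq, had 10.8, 18.1, 6.19 and 111.0 CPM with DSS, against 1.77, 1.93, 1.21 and 1.84 CPM with water (4.46, adjusted p = 0.00421). In these last 2, DSS replicate 4 was the highest library by far, and without it the log2 fold changes were 2.38 (adjusted p = 0.0399) for Chi3l1 and 2.82 (adjusted p = 0.0216) for 9930013L23Rik. Chi3l1 did not pass without replicate 4 of any wall group (2.09, adjusted p = 0.0979).

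Among the 12 largest falls, several genes act in amino acid and sulfur metabolism. Cbs, the first enzyme of transsulfuration, had 17.1, 1.3, 1.06 and 1.56 CPM with DSS, against 45, 92.1, 47.5 and 36 CPM with water (-3.38, adjusted p = 0.00192). Cdo1, which oxidises cysteine, had 9.62, 1.84, 3.72 and 3.28 CPM with DSS, against 43.6, 69.8, 46.7 and 35.6 CPM with water (-3.41, adjusted p = 7.63e-05). Cps1, the ammonia-fixing enzyme of the urea cycle, had 3.77, 0.227, 0.302 and 1.16 CPM with DSS, against 9.55, 24, 8.71 and 10.7 CPM with water (-3.26, adjusted p = 0.00128). DSS replicate 1 was in each case the highest DSS library, and without it Cbs was at -5.37 (adjusted p = 1.84e-06). Fam55b, Fut9, a fucosyltransferase, and Smpx, a small muscle protein, made up the rest, at -3.27, -3.21 and -3.17 log2 units (adjusted p = 0.000183, 0.000149 and 0.000125).

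Genes were sorted into classes by libraries outside this comparison. Epithelial cells of caNrf2 mice (4 libraries) were set against untreated wall of caNrf2 mice (4 libraries), and of 14506 genes tested there 356 were higher in epithelial cells (2.45%) and 1641 in wall (11.3%), with an adjusted p below 0.05 and more than 2 log2 units. Epithelial and wall genes below are members of these classes. Wall holds epithelium too, so the classes give relative levels and not the cell type that expresses a gene. The colonocyte gene Car4 (-2.97 log2 units) and the hormone gene Pyy (-2.60) were in the wall class. The epithelial class held 13 of 20 immediate early and heat shock genes. Of the 1641 wall genes, 67% rose with DSS in control wall and 3.29% fell, with a median of 1.03. Of the 329 epithelial genes that were also tested in wall, 27.7% rose and 15.2% fell, with a median of 0.16. The epithelial split turned round with a class limit of 1 log2 unit, where 16.7% of 1093 genes rose and 28.5% fell. The remaining 12509 genes tested in both had 15.5% higher and 19.3% lower. Wall genes held 12, 13.9, 17.7 and 12.4% of the counts in the DSS libraries, against 10.3, 8.52, 10.5 and 9.8% in the water libraries.

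**Figure D5:**
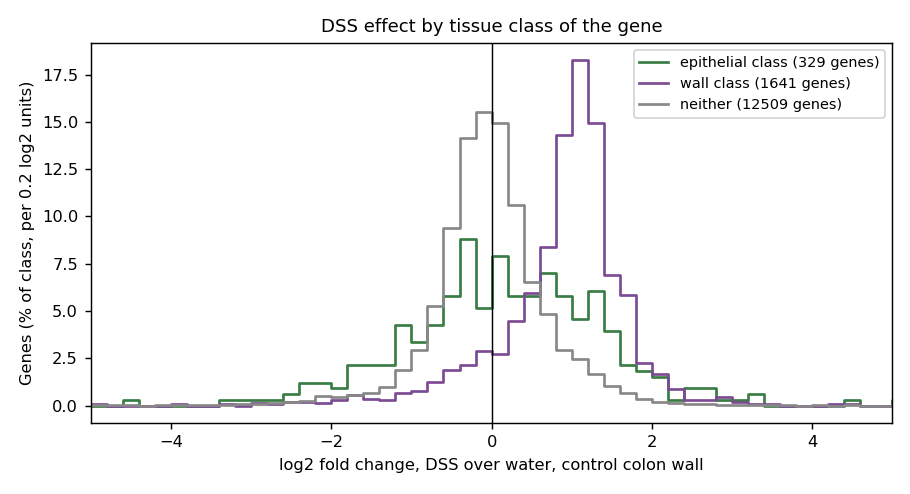
Distribution of the log2 fold change, DSS over water in control wall, for genes higher in epithelial cells, genes higher in wall and the remaining genes tested in both, as a percentage of each class per 0.2 log2 units. The wall class is shifted to the right, with a median of 1.03, whereas the epithelial class is broad around its median of 0.16.

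Epithelial genes that rose most, besides Isx, included Cwh43, with 19.9, 29.4, 9.46 and 33.8 CPM with DSS, against 3.24, 4.11, 4.69 and 2.47 CPM with water (2.68, adjusted p = 0.000125), and Acacb, the acetyl-CoA carboxylase that restrains fatty acid oxidation, with 27.1, 48.3, 40.1 and 31.7 CPM with DSS, against 13.4, 14.7, 10.3 and 13.2 CPM with water (1.51, adjusted p = 0.000153). Neither overlapped between the groups. Wall genes that fell most, against the direction of most of their class, included Ttr, the retinol and thyroid hormone carrier, with 19.5, 4.68, 9.51 and 11.9 CPM with DSS, against 92.7, 86.5, 92.3 and 64.6 CPM with water (-2.88, adjusted p = 0.000223), and Itih2, a hyaluronan-linked protease inhibitor, with 10.1, 4.66, 5.18 and 5.22 CPM with DSS, against 27.6, 23.3, 25 and 25.8 CPM with water (-2.01, adjusted p = 0.000289). Tmprss13, a membrane serine protease, was another of that kind, at -2.47 log2 units (adjusted p = 0.000736).

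The DSS effect in control wall was set beside the DSS effect in caNrf2 wall, measured in 8 libraries that the control contrast does not use. Of the 6300 genes past the threshold in control wall, 97.1% had the same sign in caNrf2 wall and 72.7% passed there too in the same direction. In caNrf2 wall 6626 genes passed, 41.2% of those tested. The difference of the 2 effects was tested for every gene, and 0 passed in edgeR's test, where 1279 had an unadjusted p below 0.05 and the smallest adjusted p was 0.0685. DESeq2 called 34 genes and limma's voom test 113. Without replicate 4 of any wall group edgeR's test called 98, and without control water replicate 4 it called 93.

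Side by side, Lgr5 changed by -4.04 in control wall and -4.19 in caNrf2 wall, Pecam1 by 1.50 and 1.23, and Rspo3 by 2.38 and 1.92. Interferon-stimulated genes rose in 26 cases in control wall and in 13 in caNrf2 wall. Ifit1 changed by 2.48 in control wall and by 0.33 in caNrf2 wall (adjusted p of the difference = 0.445). Gpx2 fell by 2.07 in control wall and changed by -0.80 in caNrf2 wall (adjusted p of the difference = 0.478). Fosl1, a factor of the AP-1 family, changed by -3.13 in control wall and 1.48 in caNrf2 wall (adjusted p of the difference = 0.327), and its control libraries read 1.32, 2.04, 1.31 and 5.24 CPM with DSS, against 21.6, 30.5, 35.2 and 1.41 CPM with water. Water replicate 4 was the single low water library there.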

How the data were processed

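RNA of whole colon wall was sequenced, and the libraries were grouped by their titles. The authors deposited 1 file per library with estimated counts and length-scaled TPM values for 30383 RefSeq transcripts, per the file headers, and 39.2% of the estimated counts were not whole. RSEM 1.2.11, FastQC and the build mm10 are named, without their roles, per the submitters' processing notes. The sources used here do not give the aligner, filters or strand setting, so overlapping or antisense genes may share reads. The authors' TPM served only to describe the files, and no TPM value is printed.

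Estimated counts were summed to 23329 symbols and rounded. The 4 wall groups (16 libraries) were fitted together in edgeR 4.0.16 (R 4.3.3) with TMM scaling, edgeR's default filter on low counts, which kept 16074 genes, the quasi-likelihood test and Benjamini-Hochberg adjustment, at a threshold of 0.05. The common coefficient of biological variation was 0.26. Standard errors were derived from the F statistic. The pipeline was tested on simulated data. The lowest chi-square per gene between any pair of control wall libraries of the same group was 50.1, so no such pair differed by as little as sampling noise. The labels do not say that replicate numbers pair the libraries, so the main fit used no pairing. Alternatives in scaling, filter, method, fit and libraries are given at the end. Exonic lengths are those of the files, and promoters came from the RefSeq table of GRCm38.p6, matched by symbol for 11271 of the 16074 genes.

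The 56 gene lists were chosen with earlier results of these data known, so no list is independent evidence. Genes were named by rule. The rule took the 12 largest rises and 12 largest falls without overlap and with at least 10 CPM in the higher group, and the 8 epithelial genes that rose most and 8 wall genes that fell most. In each list it took up to 4 members past the threshold in each direction, with at least 1 CPM in the higher group, and up to 3 abundant members that did not pass. Nfe2l2 and the cell type markers were added. Cdc20, Col4a1, Dmbt1, Duox2, Gbp2, Ifit3, Isg15, Mki67, Rmrp, Rn45s, Rplp0 and Top2a fall outside that rule and were chosen after their values were seen. Some genes that the rule names are not reported here.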

Additional observations from a re-analysis of the deposited data

Results flagged for a closer look

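Among 184 of the genes named here, 47 of 368 groups of 4 libraries held a library that lay far from the other 3 by Dixon's test at the 95% level. The rate of 1 in 20 that belongs to this level holds for independent, normally distributed values. CPM of genes partly picked for large changes, in the same 8 libraries, are not such values, so the count only describes the libraries. By library, 11 of these were in DSS replicate 4, 11 in DSS replicate 1, 9 in DSS replicate 3, 1 in DSS replicate 2, 8 in water replicate 2, 6 in water replicate 4 and 1 in water replicate 1. All values below are CPM in the library named.

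DSS replicate 4 was high in genes of wound, matrix and cytokine lists. It had 318.7 for Ereg, 2231 for Fos, 57.6 for Il11, 112.9 for Il1b, 22.8 for Cxcl2 and 123.6 for Ptgs2. It also had 146.8 for Mmp10, 175.1 for Mmp3, 103.1 for Saa3, 68.8 for Chi3l1 and 111.0 for 9930013L23Rik.

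DSS replicate 3 was high in red blood cell genes, with 7794 for Hba-a1, 1143 for Hba-a2, 5703 for Beta-s, 361.2 for Hbb-b1, 1489 for Hbb-b2 and 337.2 for Alas2. Sox10 stood apart there at 15, Krt5 at 2.52 and Krt8 at 3770.

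DSS replicate 1 stood apart from the other DSS libraries in genes that fell, with 42 for Cldn2, 157.1 for Reg4, 7.51 for Nox1, 12.5 for Gsta3, 160.0 for Sult1a1 and 17.1 for Cbs. It had 28.5 for Fam55b, 10.1 for Itih2, 7.35 for Tmprss13, 37.5 for Hoxb9 and 147.9 for Idh3a. In DSS replicate 2 the value was 282.0 for Slc39a4.

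Water replicate 2 had 33.9 for Adipoq, 82.1 for Cfd, 334.2 for Cldn2, 1854 for Reg4, 24 for Cps1, 7.49 for Rpl26, 1.5 for Saa3 and 0.214 for Gzmb. Water replicate 4 had 1547 for Rplp0, 484.0 for Rps18, 774.3 for Elf3, 48.9 for Hopx, 19.8 for Muc1 and 1.24 for Oas2. In water replicate 1 the value was 143.8 for Slc39a4.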

How the results depend on the processing

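The count of 6300 genes past the threshold was 9501 in limma's voom test with quality weights, 4187 of them lower against 2587 in edgeR's test. It was 6933 in DESeq2, 6448 with RLE scaling, 6292 with upper quartile scaling, 5951 with total counts, 6213 with no filter, 5903 with a limit of 1 CPM, 6314 with the files' posterior counts, 6176 with a term for the file number prefix, 6375 without replicate 4 of any wall group and 5925 when the 8 control libraries were fitted alone. Without 1 control library at a time it ranged from 4952 to 6784, with 2572 to 3911 higher and 1893 to 3159 lower, and over all settings run 76.9 to 99.8% of the 6300 calls were shared. No setting moved the median log2 fold change of all genes by more than 0.09. The share of calls that were higher did move. It was 58.9% in the main fit, 52.8% with RLE scaling, 52.7% in DESeq2 and 50.8% without water replicate 3. With the 8 control libraries alone it was 51.4%, with 3044 genes higher and 2881 lower. The excess of rises over falls therefore depends on the setting. Direction was followed only for genes named in the text, and among those called Ptgs2 was the gene that turned. It was at -0.22 without DSS replicate 4 and -0.08 without replicate 4 of any wall group. Over fits without 1 control library it ranged from -0.22 to 3.12.

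Deviations from the group means had correlations of -0.12, -0.16, 0.03 and -0.10 between same-numbered DSS and water libraries. With means of only 4 libraries these values cannot exclude pairing. A fit with a replicate block called 5546 genes in control wall and 6027 in caNrf2 wall. The difference between genotypes gave 34 genes in DESeq2, 113 in voom, 98 without replicate 4 of any wall group and 0 to 93 without 1 control library, where the 93 came without water replicate 4. In the other settings, the replicate block included, it was 0. DSS in caNrf2 wall called 6360 to 7007 genes without 1 control library. Of the epithelial class, 16.7% were higher and 28.5% lower at a class limit of 1 log2 unit, and 9.77% of 133 genes were lower at a limit of 3. Without 1 control library 18.7 to 29.4% were higher and 11.7 to 19% lower, and of the wall class 54.4 to 70.4% were higher and 2.5 to 3.53% lower. The causes were not tested. Proteasome falls, 9 in edgeR's test, were 21 with RLE scaling, 23 in DESeq2 and 34 in voom. In voom 16 cholesterol and fatty acid synthesis genes and 14 fatty acid oxidation and PPAR genes fell, against 8 and 6 in edgeR's test. Depth limits the cytokine and neutrophil genes, many of which had under 1 CPM with water. It also limits some chemokine, T cell and mast cell genes.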
